A study of Mus musculus with 12 samples.

Results

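The hepatocyte is the main parenchymal cell of the liver. The genes described here are 9 transcription factors grouped as hepatocyte identity factors: *Foxa1*, *Foxa2*, *Foxa3*, *Cebpa*, *Cebpb*, *Cebpd*, *Hhex*, *Prox1* and *Onecut1*. They were picked by gene symbol, with earlier results of these data known, and all 9 were found among the 54838 genes of the deposited read count table. All 9 passed the model's filter on low counts in every comparison. The libraries came from whole livers of 12 female C57BL/6J mice, a standard inbred strain, adult and wild type, with 1 library per mouse and 3 mice in each of 4 groups. For 7 days the drinking water was either plain or held 25 mM ZnSO4 (zinc sulfate). Each mouse was then injected with PBS (phosphate-buffered saline, the vehicle) or with 200 µg of dexamethasone (Dex), a synthetic glucocorticoid, and the liver was removed 2 h after it. Groups are named by the water and then the injection, so that water-PBS is the group with neither treatment and zinc-Dex the group with both. All mice shared the strain, the sex and the injection, so each Dex comparison is against mice that were injected too, and a single dose and a single time after Dex were sampled.

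Hepatocyte identity rests on a small circle of DNA-binding proteins that bind each other's genes and the genes for liver products. FOXA proteins (the forkhead factors, once called HNF3) open closed chromatin so that other factors can bind. C/EBP proteins are leucine zipper factors, of which C/EBPα is linked to the quiescent, metabolically active hepatocyte, while C/EBPβ and C/EBPδ are known as fast responders to hormones, fasting, inflammation and liver injury. HHEX, PROX1 and HNF6 (the product of *Onecut1*) are homeobox factors needed when the liver bud forms, and they stay on in the adult organ. Dex binds the glucocorticoid receptor, which acts on DNA within minutes.

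The library totals lay between 9091152 and 12303527 counts, and the 9 genes had between 23 and 4533 raw counts in any 1 library. Genes known to follow the treatments moved with the labels. *Mt1*, a zinc-binding metallothionein, rose with zinc by 3.87 ± 0.23 (log2, SE). *Fkbp5*, a glucocorticoid receptor target, rose with Dex by 3.12 ± 0.20 on water and 2.74 ± 0.20 on zinc. Hepatocyte genes dominated every library, and albumin (*Alb*) alone had a mean of 1059940 normalized counts in water-PBS. Livers were taken whole, so in every result fewer cells of a type and less RNA per cell cannot be told apart.

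Dex changed most of these genes, and it did so in both directions. In water-Dex against water-PBS, 7 of the 9 genes were called, 2 higher and 5 lower, where called means a DESeq2 Benjamini-Hochberg adjusted p under 0.05 over all genes and an absolute log2 fold change above 0.8. In all genes tested the same rule called 9.68%. In zinc-Dex against zinc-PBS, which shares no mouse with the first comparison, 8 of the 9 were called, 2 higher and 6 lower, against 9.68% of all genes. In zinc-Dex against water-PBS, where the Dex and zinc treatments are combined and which shares 3 mice with each of the others, 7 were called against 11.2%. The median absolute log2 fold change of the 9 genes was 1.35 with Dex on water and 1.85 with Dex on zinc, and over all tested genes it was 0.25 and 0.27. Without the fold limit, 9, 8 and 9 of the genes had an adjusted p under 0.05 in these comparisons, where all genes gave 21.6%, 20.1% and 24.4%. The 9 genes are few and were chosen with earlier results of these data known, so the counts describe these genes and are not a test of the group.

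Zinc by itself moved 1 of the 9. In zinc-PBS against water-PBS only *Foxa3* was called, where 0.138% of all genes were called and 0.341% had an adjusted p under 0.05. In zinc-Dex against water-Dex none was called by DESeq2 or by edgeR, and none had an unadjusted p under 0.05, while 0.469% of all genes were called and 1.35% had an adjusted p under 0.05. The interaction of zinc and Dex, which asks whether the Dex effect differed between the 2 kinds of drinking water, called none of the 9 by DESeq2 or edgeR, with 1 gene (*Foxa3*) under 0.05 unadjusted, and 0.0191% of all genes called (0.0229% without the fold limit).

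**Figure D1:**
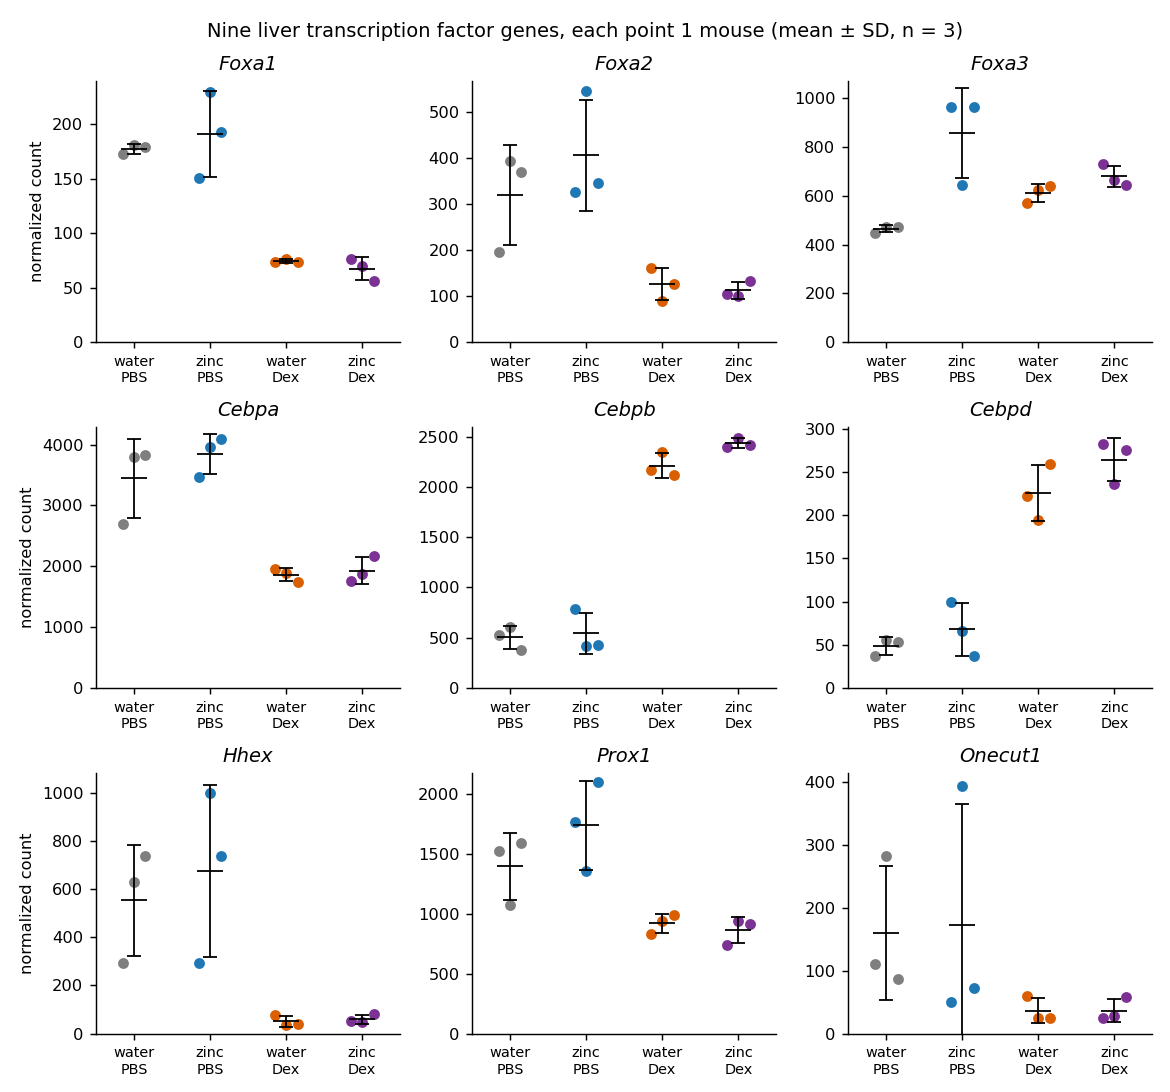
Normalized read counts (y axis, linear, from 0) of the 9 genes in each of the 12 mice, by group on the x axis; each point is 1 mouse, and the bars are the mean and SD of 3 mice (the lower SD bar of Onecut1 in zinc-PBS reaches below 0 and is cut off). The Dex mice lie below the PBS mice for Foxa1, Foxa2, Cebpa, Hhex and Prox1 and above them for Cebpb and Cebpd, and Onecut1 in the PBS mice ranges from 50.5 to 394.

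**Figure D2:**
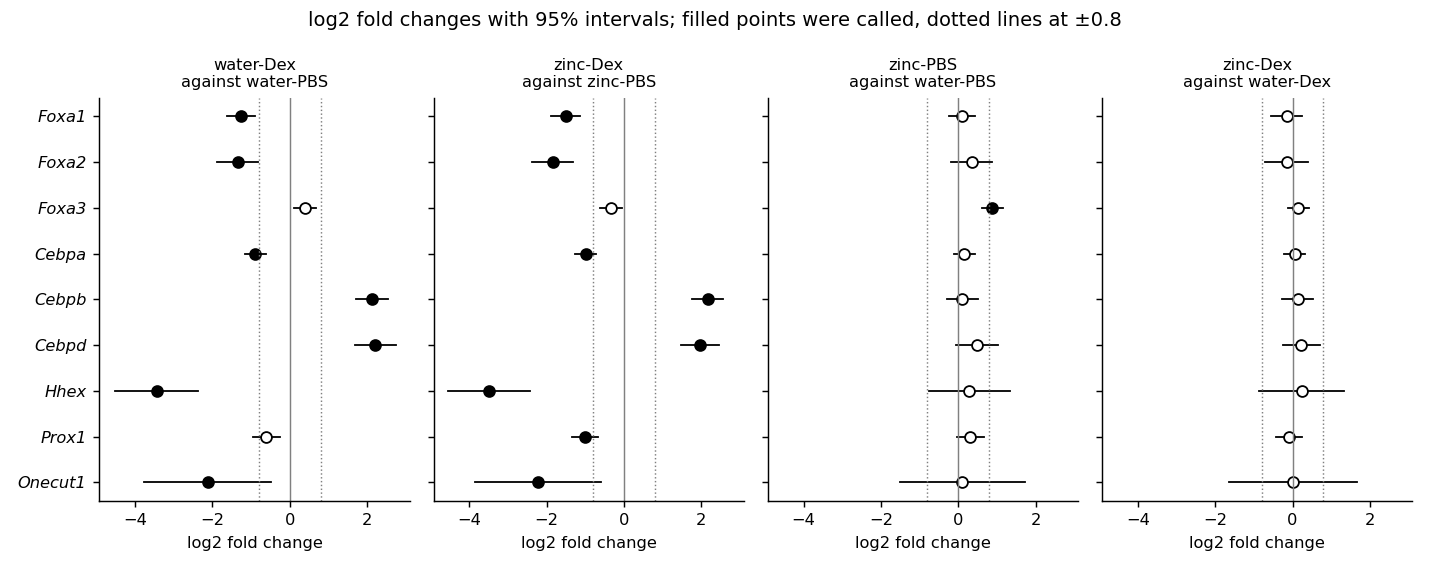
Log2 fold changes (x axis) of the 9 genes in 4 comparisons, with 95% intervals as lines; filled points were called and the dotted lines mark ±0.8. Hhex has the largest fall, to -3.44 with Dex on water and -3.496 on zinc, and the only filled point in the zinc comparison of PBS mice is Foxa3 at 0.88.

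Among the FOXA genes, *Foxa1* and *Foxa2* were called lower with Dex on both waters, while *Foxa3* was not called with Dex on either. *Foxa1* (chr12:57540628-57546916, minus strand, mm10) encodes HNF3α. It had 172, 181 and 179 normalized counts in water-PBS and 151, 230 and 193 in zinc-PBS. With Dex it had 73.1, 76.6 and 73.2 on water and 76.0, 70.0 and 55.7 on zinc. Every Dex mouse was below every PBS mouse, and the water-PBS and water-Dex mice were close to each other within their groups (coefficient of variation 2.62% and 2.66%). *Foxa1* fell by 1.26 ± 0.19 (log2, SE, DESeq2 adjusted p = 7.43e-10) on water and by 1.51 ± 0.19 (adjusted p = 7.46e-14) on zinc, to 0.42 and 0.35 of the PBS level.

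*Foxa2* (chr2:148042877-148046969, minus strand) encodes HNF3β, which is also tied to the fasting response of the liver. Water-PBS mice had 195, 393 and 370 normalized counts and zinc-PBS mice 327, 545 and 347. Water-Dex mice had 160, 90.4 and 126, and zinc-Dex mice 104, 99.97 and 134. The groups did not overlap, but the water-PBS mouse at 195 stood far nearer to the highest Dex mouse than the others did. That mouse, replicate 1, was also the lowest of water-PBS for *Foxa1*, *Foxa3*, *Cebpa*, *Cebpd* and *Hhex*, but not for *Cebpb*, *Prox1* or *Onecut1*. *Foxa2* fell by 1.35 ± 0.27 (adjusted p = 1.24e-05) on water and by 1.85 ± 0.27 (adjusted p = 4.26e-10) on zinc.

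*Foxa3* (chr7:19013284-19023538, minus strand) encodes HNF3γ, the FOXA protein with the highest messenger RNA level per length in these livers. It had 447, 472 and 472 normalized counts in water-PBS and 963, 643 and 962 in zinc-PBS, so each zinc mouse was above each water mouse. After Dex the water mice had 570, 624 and 640 and the zinc mice 729, 665 and 646. Zinc raised *Foxa3* in PBS mice by 0.88 ± 0.14 (log2, SE, DESeq2 adjusted p = 1.10e-06), a 1.85-fold higher level with a 95% interval of 1.52 to 2.24. The adjusted p by edgeR's quasi-likelihood test was 0.015. Without zinc-PBS replicate 1 or without replicate 3 the rise was 0.79 in either case, just under the fold limit, with adjusted p = 0.00051 and 0.00045. In Dex mice the zinc difference was 0.15 ± 0.14 (95% interval -0.13 to 0.43, adjusted p = 0.84). With Dex, *Foxa3* went up by 0.40 ± 0.14 (adjusted p = 0.030) on water, below the fold limit, and its value on zinc was -0.33 ± 0.14 (adjusted p = 0.080). The difference between these 2 Dex effects was -0.73 ± 0.20, with an unadjusted p = 0.00028 and an adjusted p = 0.37 over all genes. That difference was -0.90 (adjusted p = 5.7e-07) without zinc-PBS replicate 2, the mouse with 643 counts, so that call turned on 1 mouse.

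Levels of different genes can be compared only per length, so normalized counts were divided by the summed exon length in kilobases. The 3 FOXA genes together had 416 ± 54.1 normalized counts per kb (mean ± SD, n = 3) in water-PBS and 649 ± 31.5 in zinc-PBS. With Dex the sum was 375 ± 12.1 on water and 402 ± 19.98 on zinc. On water the Dex mice (368 to 389) lay within the range of the PBS mice (354 to 452), and on zinc every Dex mouse (390 to 425) was below every PBS mouse (615 to 677). The mean Dex difference of the sum was -0.14 (log2) on water and -0.69 on zinc. What changed on both waters was the make-up of the sum. *Foxa3* made up 55.3 ± 5.9% of the sum in water-PBS, 64.4 ± 11.4% in zinc-PBS, 79.9 ± 3.9% in water-Dex and 83.1 ± 1.6% in zinc-Dex. *Foxa2* went from 31.8 ± 7.4% in water-PBS to 14.1 ± 4.0% in water-Dex, and *Foxa1* from 12.9 ± 1.5% to 5.95 ± 0.30%. These shares follow from the single-gene values above and are given as a description.

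**Figure D3:**
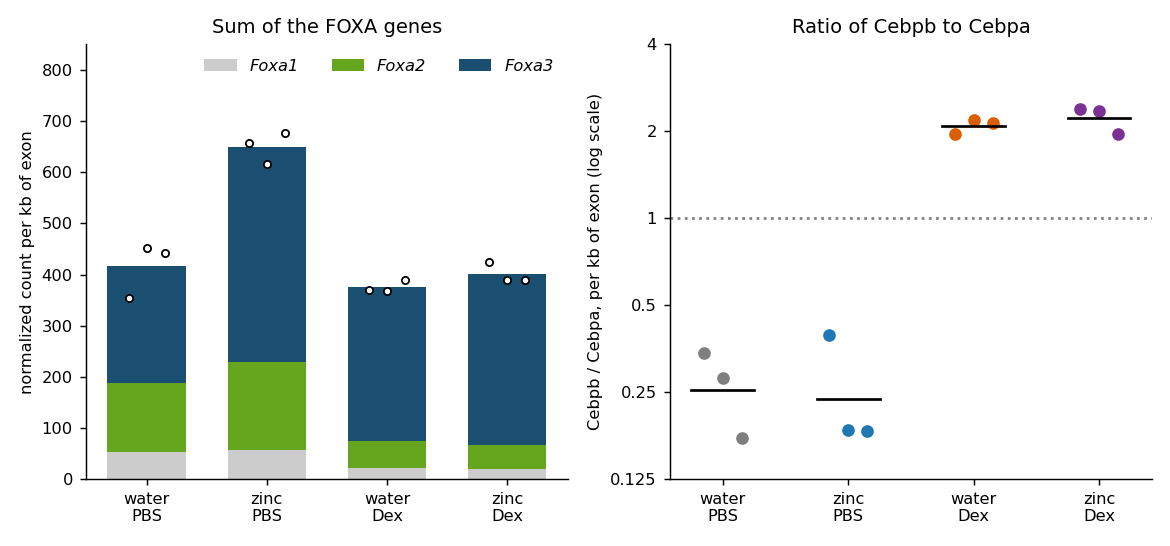
Left, mean level per kb of exon (y axis, from 0) of Foxa1, Foxa2 and Foxa3 stacked by group, with the sum in each mouse as open points; right, the ratio of Cebpb to Cebpa per kb of exon in each mouse (log2-scaled axis, line at the geometric mean of 3 mice, dotted line at equal levels). Foxa3 takes 79.9% and 83.1% of the FOXA sum in the Dex groups, and the ratio crosses from at most 0.39 in PBS mice to at least 1.95 in Dex mice.

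The stretches just before the start sites of *Foxa2* and *Foxa3* are shown as a pair, a FOXA gene that fell with Dex beside the one that zinc raised. The sequences are RefSeq's for GRCm38.p6, the assembly of mm10, read 5′ to 3′ along the gene's own strand and ending at the base before transcription, and capitals mark the core bound by HNF6 in the first and a TATA box in the second.
Foxa2, chr2:148046970-148047219, minus strand: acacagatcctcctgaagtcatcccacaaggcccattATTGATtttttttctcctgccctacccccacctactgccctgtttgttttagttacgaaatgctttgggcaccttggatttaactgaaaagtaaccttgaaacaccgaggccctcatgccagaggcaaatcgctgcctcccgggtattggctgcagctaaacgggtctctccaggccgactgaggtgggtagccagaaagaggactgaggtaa
Foxa3, chr7:19023540-19023789, minus strand: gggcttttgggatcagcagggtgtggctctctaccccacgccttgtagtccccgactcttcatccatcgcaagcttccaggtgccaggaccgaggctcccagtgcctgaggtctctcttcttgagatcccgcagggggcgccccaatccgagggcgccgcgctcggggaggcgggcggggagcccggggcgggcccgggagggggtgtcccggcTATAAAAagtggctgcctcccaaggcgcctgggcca
*Foxa2* holds the HNF6 core ATTGAT at -213 to -208 from its start, a core that 6.72% of 32851 mouse promoter windows of 250 bases hold on either strand. *Foxa3* holds a TATA box at -36 to -30, which 4.98% of the windows hold. The GC content is 50.8% before *Foxa2* and 68.8% before *Foxa3*, around a median of 52.4% over all windows.

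The C/EBP genes split by member: Dex lowered *Cebpa* and raised *Cebpb* and *Cebpd*. *Cebpa* (chr7:35119293-35121928, plus strand), which encodes C/EBPα and was the highest of the 9 genes per kb in PBS mice, had 2699, 3800 and 3831 normalized counts in water-PBS. It had 3471, 3963 and 4089 in zinc-PBS. After Dex it had 1955, 1884 and 1741 on water and 1753, 1865 and 2170 on zinc. No Dex mouse reached the level of the lowest PBS mouse. *Cebpa* fell by 0.89 ± 0.14 (adjusted p = 1.50e-09) on water and by 0.99 ± 0.14 (adjusted p = 7.99e-12) on zinc. These values are close to the fold limit: in zinc-Dex against water-PBS the change was -0.84 ± 0.14, and it was -0.76, -0.75 and -0.77 without water-PBS replicate 2, water-PBS replicate 3 or zinc-Dex replicate 1.

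*Cebpb* (chr2:167688915-167690418, plus strand) is a gene with a single exon whose protein, C/EBPβ, drives gluconeogenic and acute phase genes. It had 525, 608 and 381 normalized counts in water-PBS and 781, 418 and 430 in zinc-PBS. With Dex it had 2172, 2348 and 2115 on water and 2392, 2489 and 2418 on zinc. The Dex mice agreed closely (coefficient of variation 5.5% and 2.07%), and the lowest of them was far above the highest PBS mouse. *Cebpb* rose by 2.13 ± 0.21 (adjusted p = 2.85e-23), a 4.38-fold higher level, on water and by 2.16 ± 0.20 (adjusted p = 3.59e-24), 4.48-fold, on zinc. The difference between these Dex effects was 0.03 ± 0.29, with a 95% interval of -0.53 to 0.60. Zinc-Dex mice all had more *Cebpb* than water-Dex mice, but by only 0.14 ± 0.20 (adjusted p = 0.93).

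*Cebpd* (chr16:15887286-15891031, plus strand), the gene of C/EBPδ, was the lowest of the 9 per kb in PBS mice. It had 36.8, 55.5 and 52.7 normalized counts in water-PBS, from 35 to 61 raw counts, and 99.3, 66.4 and 37.1 in zinc-PBS. Dex mice had 222, 195 and 259 on water and 282, 235 and 275 on zinc. *Cebpd* rose by 2.22 ± 0.26 (adjusted p = 2.39e-15) on water and by 1.97 ± 0.25 (adjusted p = 3.38e-13) on zinc. Its zinc value in PBS mice, 0.48 ± 0.28, did not pass the test (adjusted p = 0.95), and those groups overlapped.

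The opposite moves of *Cebpa* and *Cebpb* turned their order round. Per kb of exon, *Cebpb* had 0.34, 0.28 and 0.17 times the level of *Cebpa* in water-PBS mice and 0.39, 0.18 and 0.18 times in zinc-PBS mice. In water-Dex mice it had 1.95, 2.19 and 2.13 times the level and in zinc-Dex mice 2.39, 2.34 and 1.95 times. The ratio was 8.73-fold higher with Dex over both waters, 8.16-fold within water mice and 9.33-fold within zinc mice. The PBS and Dex mice did not overlap. The ratio restates the single-gene values above, so it is given with no test.

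Of the other C/EBP genes, *Ddit3*, whose protein CHOP binds other C/EBP proteins and is known from stress responses, was called lower with Dex, by 0.86 ± 0.31 (adjusted p = 0.032) on water and 1.003 ± 0.31 (adjusted p = 0.0095) on zinc, at 18.3 to 59.9 normalized counts in any library. *Cebpg*, a partner that lacks an activation domain, was at 0.20 ± 0.09 (adjusted p = 0.083) on water and -0.01 ± 0.09 (adjusted p = 0.94) on zinc. *Cebpe*, a myeloid gene, was at -0.77 ± 0.38 (adjusted p = 0.15) and -0.53 ± 0.37 (adjusted p = 0.36).

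The upstream stretches of *Cebpa* and *Cebpb* are shown side by side because they belong to the pair that moved apart. Capitals mark a TATA box in the first and, in the second, TGACG or its reverse complement CGTCA, the core of the cyclic AMP response element.
Cebpa, chr7:35119043-35119292, plus strand: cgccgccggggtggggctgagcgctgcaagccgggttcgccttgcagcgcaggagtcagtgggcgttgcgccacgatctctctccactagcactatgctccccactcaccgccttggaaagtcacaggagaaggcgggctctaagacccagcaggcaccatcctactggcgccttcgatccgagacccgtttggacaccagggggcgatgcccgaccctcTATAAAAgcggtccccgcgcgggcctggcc
Cebpb, chr2:167688665-167688914, plus strand: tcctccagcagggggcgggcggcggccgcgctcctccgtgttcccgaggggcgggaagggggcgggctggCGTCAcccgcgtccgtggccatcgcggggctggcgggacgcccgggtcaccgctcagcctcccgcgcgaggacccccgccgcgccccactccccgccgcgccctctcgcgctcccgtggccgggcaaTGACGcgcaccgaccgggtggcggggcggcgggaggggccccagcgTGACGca
*Cebpa* has its TATA box, TATAAAA, at -30 to -24. *Cebpb* has the 5-letter element at -180 to -176, at -53 to -49 and at -7 to -3, and 17.8% of all windows hold it at least once on either strand. The whole palindromic element, TGACGTCA, held by 1.55% of windows, was in neither. The windows have 66.4% and 81.6% GC. The search for TATAAAA and TGACG was added after the values were seen. Neither motif is particular to the genes printed with it. CGTCA is also found before *Onecut1*, at -139 to -135. The reverse complement of TATAAAA is found before *Prox1*, at -35 to -29. It is also found before a start site of *Foxa2* inside the annotated gene, at -209 to -203.

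The homeobox genes fell with Dex, and *Hhex* fell furthest of the 9. *Hhex* (chr19:37434810-37440731, plus strand) had 295, 628 and 738 normalized counts in water-PBS and 293, 997 and 738 in zinc-PBS. Dex mice had only 79.2, 35.1 and 38.6 on water and 52.1, 46.7 and 80.7 on zinc. The mouse numbered 1 in each PBS group stood well below the other two of its group, yet the highest Dex mouse, at 80.7, was still below it. *Hhex* fell by 3.44 ± 0.55 (log2, SE, adjusted p = 6.95e-09) on water and fell by 3.496 ± 0.54 (adjusted p = 3.38e-09) on zinc, and the PBS mean was 10.9 and 11.3 times the Dex mean. Of the 681 genes called lower with Dex on water, 11 fell further than *Hhex*, which ranked 12. The others ranked 104 (*Onecut1*), 300 (*Foxa2*), 334 (*Foxa1*) and 608 (*Cebpa*). Among the 733 genes called lower with Dex on zinc *Hhex* ranked 32, followed by *Onecut1* at 118, *Foxa2* at 177, *Foxa1* at 261, *Prox1* at 541 and *Cebpa* at 557. Leaving out any 1 mouse kept the fall of *Hhex* between 3.18 and 3.91 on water and between 3.11 and 3.85 on zinc. Its own zinc differences were 0.29 ± 0.53 in PBS mice and 0.23 ± 0.56 in Dex mice, with 95% intervals of 0.59 to 2.52 times and 0.55 to 2.50 times the level on water.

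The DNA before the start of *Hhex* is shown because it is the gene that fell furthest, with capitals at GAGCGCA, the reverse complement of the metal response core TGCGCNC that 12.5% of windows hold, a search that was added after the values were seen. The stretch ends 31 bases before the RefSeq start site, at the base before the annotated gene, and a second match runs past its end.
Hhex, chr19:37434591-37434809, plus strand: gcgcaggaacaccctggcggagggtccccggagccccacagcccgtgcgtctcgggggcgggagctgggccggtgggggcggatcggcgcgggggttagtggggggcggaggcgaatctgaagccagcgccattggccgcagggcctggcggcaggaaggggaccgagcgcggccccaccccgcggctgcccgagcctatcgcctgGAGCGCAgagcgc
The same form is found 3 times before *Onecut1*. The TGCACNC form (10.4%) is found 2 times, in overlapping matches, before a start site of *Foxa2* inside the annotated gene. That site is not the one with the TATAAAA match. *Foxa3* holds neither form in its window. None of the windows read for these genes holds the full glucocorticoid response element, which 0.00913% of all windows hold, nor the single recognition site AGAACA within it (16.1%), the C/EBP core TTGCNNAA (9.56%) or the HNF4 core CAAAGTCCA (0.384%). All motifs were searched on both strands. The FOXA core TGTTTAC (3.17%) was in the window of *Foxa1*, which lies inside the annotated gene and not before it. Windows were read for 8 of the 9 genes, and no match says only that these letters are not in these 250 bases.

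*Prox1* (chr1:190118035-190170714, minus strand), whose protein holds back bile acid genes in hepatocytes and is the switch for lymphatic identity elsewhere, fell less. It had 1522, 1073 and 1589 normalized counts in water-PBS and 1762, 1354 and 2092 in zinc-PBS. Levels in Dex mice were 829, 936 and 990 on water and 735, 936 and 913 on zinc. The groups did not overlap on either water, although the lowest water-PBS mouse and the highest water-Dex mouse were close. *Prox1* fell by 0.60 ± 0.17 (adjusted p = 0.0043) on water, which is under the fold limit, and by 1.01 ± 0.17 (adjusted p = 1.33e-07) on zinc, which is called. The difference between those Dex effects was -0.41 ± 0.25 (95% interval -0.89 to 0.07, adjusted p = 0.999), so the call on one water and not on the other does not show that the effects differed. Lymphatic marker genes had 360 to 467 normalized counts in sum in PBS mice and 403 to 548 in Dex mice. Of the 3 markers, *Ccl21a* was at 0 in all 12 libraries, *Pdpn* had at most 8.1 normalized counts and *Flt4* made up nearly all of the sum.

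*Onecut1* (chr9:74861921-74891781, plus strand), the gene of HNF6, gave the least certain fall. It had 111, 282 and 86.8 normalized counts in water-PBS and 50.5, 394 and 72.4 in zinc-PBS. Dex mice had 59.9, 24.5 and 25.7 on water and 25.0, 27.8 and 57.7 on zinc. The mouse numbered 2 in each PBS group was several times above the rest of its group, and on zinc the PBS and Dex mice overlapped, with a zinc-PBS mouse at 50.5 below a zinc-Dex mouse at 57.7. The coefficient of variation was 66.5% in water-PBS and 112% in zinc-PBS. *Onecut1* fell by 2.13 ± 0.83 (adjusted p = 0.0497) on water and by 2.23 ± 0.83 (adjusted p = 0.040) on zinc, just past the threshold. Without zinc-PBS replicate 2 the value on zinc was -0.74 (adjusted p = 0.56), and without water-PBS replicate 2 the value on water was -1.43 (adjusted p = 0.33). *Onecut2*, its near relative, fell by 0.96 ± 0.10 (adjusted p = 1.19e-21) on water and by 1.03 ± 0.10 (adjusted p = 7.47e-25) on zinc, from 1405 to 1729 normalized counts in water-PBS to 777 to 857 in water-Dex. *Onecut3* had no counts in any library.

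Per kb of exon, the order in water-PBS was *Cebpa* (1306 ± 245 normalized counts per kb, mean ± SD, n = 3), *Cebpb* (336 ± 76.3), *Foxa3* (228 ± 7.1), *Prox1* (166 ± 33.4), *Foxa2* (135 ± 45.6), *Hhex* (110 ± 45.6), *Foxa1* (53.3 ± 1.4), *Onecut1* (38.9 ± 25.9) and *Cebpd* (12.9 ± 2.7). In that group the ranges of *Prox1* and *Foxa2*, of *Foxa2* and *Hhex*, and of *Foxa1* and *Onecut1* overlapped, and the other neighbours did not. In zinc-PBS *Foxa3* (420 ± 90.5) stood above *Cebpb* (361 ± 137), but their ranges overlapped, as did those of all further neighbours except *Cebpb* and *Prox1*. In both Dex groups the order was *Cebpb*, *Cebpa*, *Foxa3*, *Prox1*, *Cebpd*, *Foxa2*, *Foxa1*, *Hhex* and *Onecut1*. *Cebpb* was at 1471 ± 80.8 per kb in water-Dex and 1618 ± 33.5 in zinc-Dex, above *Cebpa* at 706 ± 41.3 and 732 ± 81.9. *Cebpd* went from the last place to the fifth, at 60.2 ± 8.7 and 70.5 ± 6.7 per kb, and *Hhex* to the place before the last, at 10.1 ± 4.8 and 11.8 ± 3.6. *Hhex* and *Onecut1* overlapped in both Dex groups, as did *Cebpd* and *Foxa2* in water-Dex.

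Beyond the 9 genes, a list of 20 other liver transcription factors had more genes lower than higher with Dex, while its summed level overlapped between PBS and Dex mice. With Dex on water 5 of the 18 tested were called lower and 0 higher by DESeq2, and on zinc 5 of 19 lower and 0 higher, with the same counts by edgeR. At an unadjusted p under 0.05, 4 and 2 were higher. Over all genes, 4.79% and 4.68% were called lower. With no fold limit, 7 and 6 were lower and 2 higher in each, and those that were higher are not named here. The 20 genes summed to 25067 to 29457 normalized counts in water-PBS and 29013 to 29437 in water-Dex. On zinc the sums were 26760 to 29920 with PBS and 28945 to 30192 with Dex. Abundant genes such as *Hnf4a*, with a mean of 8318 in water-PBS, weigh most in these sums. The median log2 fold change of the list was -0.30 on water and -0.24 on zinc, against -0.01 over all genes in both. The 5 called genes were shared between the waters. They included *Tbx3* (-3.23 ± 0.27 on water, -2.74 ± 0.27 on zinc), which keeps hepatocyte precursors from the bile duct fate, *Gata4* (-1.71 ± 0.16 and -1.92 ± 0.17), a zinc finger partner of the FOXA proteins, *Nr2f2* (-1.19 ± 0.16 and -1.11 ± 0.16), the orphan receptor COUP-TFII, and *Onecut2*. *Tbx3* went from 348 to 472 normalized counts in water-PBS to 32.5 to 50.5 in water-Dex, and *Gata4* from 206 to 268 to 69.0 to 77.2. *Hnf4a*, which codes for the central nuclear receptor of the hepatocyte, was at 0.28 ± 0.12 (adjusted p = 0.080) on water and 0.21 ± 0.12 (adjusted p = 0.23) on zinc. In zinc-Dex against water-PBS 6 of 18 were called lower, *Zhx2* being the sixth. None of the list was called with zinc in PBS mice or in Dex mice by DESeq2 or edgeR, and 1 in each had an unadjusted p under 0.05.

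**Figure D4:**
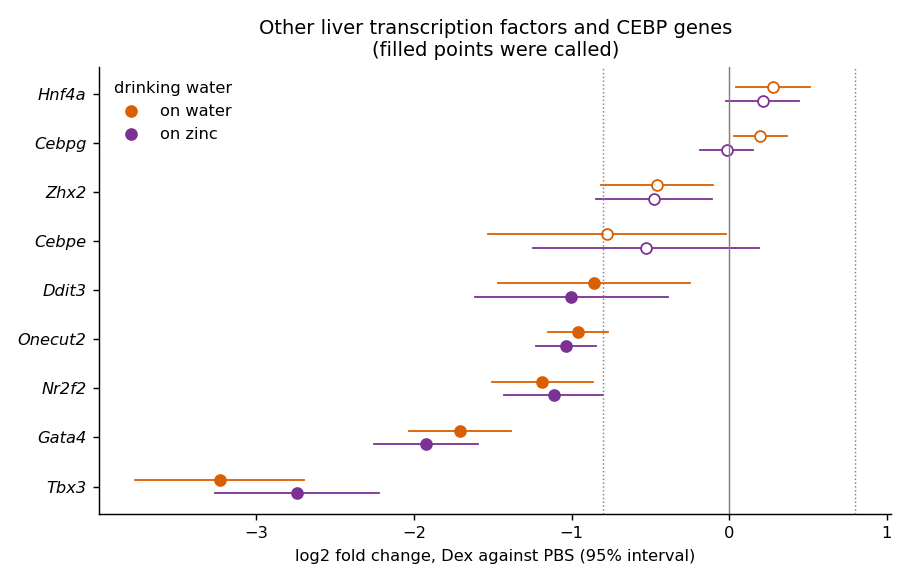
Log2 fold change with Dex (x axis, lines are 95% intervals) of the other liver transcription factors and C/EBP genes named in the text, in water mice (orange) and zinc mice (purple); filled points were called and dotted lines mark ±0.8. Tbx3, Gata4, Nr2f2, Onecut2 and Ddit3 are filled on both waters, all to the left, and Hnf4a lies near 0.28 and 0.21. The liver factors that passed as higher with no fold limit are not drawn.

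None of the genes for hepatocyte products was called lower with Dex within either drinking water. Over all genes, 4.79% were called lower and 4.89% higher with Dex on water, and 4.68% lower and 5% higher on zinc. With so few product genes, 0 called lower does not set them apart from all genes. Of 18 such genes, 3 were called higher and 0 lower on both waters by DESeq2 and by edgeR, with 0 lower at an unadjusted p under 0.05: *Tat* (2.72 ± 0.16 on water and 3.40 ± 0.16 on zinc), *Pck1* (1.62 ± 0.44 and 2.36 ± 0.44) and *Igfbp1* (3.58 ± 0.92 and 4.83 ± 0.92), of which the first is a tyrosine-degrading enzyme and the second the entry enzyme of gluconeogenesis. With no fold limit 6 and 8 were higher and 0 lower. *Alb* rose by 0.30 ± 0.08 (adjusted p = 0.0012) and *Apoa1* by 0.59 ± 0.12 (adjusted p = 1.06e-05) on water, both under the fold limit. The product genes summed to 1435780 to 1705890 normalized counts in water-PBS and 1927320 to 2063890 in water-Dex. *Alb* made up most of each sum, with means of 1059940 and 1305430, so the sum says little about the other products. Zinc in PBS mice lowered *G6pc*, the glucose-releasing phosphatase, by 1.72 ± 0.34 (adjusted p = 0.00049), and *G6pc* was also called lower in zinc-Dex against water-PBS (-1.28 ± 0.34, adjusted p = 0.0013). Among 5 fetal liver genes 3 were tested with Dex, of which *Afp* was called lower on zinc (-0.86 ± 0.32, adjusted p = 0.037) and had -0.80 ± 0.31 (adjusted p = 0.052) on water, at 15.6 to 40.6 normalized counts in any library. *H19*, a noncoding RNA of the fetal liver, was called higher in zinc-Dex than in water-Dex (3.09 ± 0.91, adjusted p = 0.0498) but not by edgeR.

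Some of these factors are also made by other cells of the liver. *Hhex*, *Gata4* and *Nr2f2* are known from endothelial cells too. The 6 endothelial markers summed to 3127 to 3537 normalized counts in water-PBS and 3534 to 3854 in water-Dex, and to 3310 to 3461 in zinc-PBS and 3646 to 3899 in zinc-Dex. In that list *Kdr* was called lower (-1.14 ± 0.12 on water, -1.26 ± 0.12 on zinc) and *Lyve1* higher (2.53 ± 0.14 and 2.81 ± 0.14). Without *Lyve1*, a choice made after the values were seen, the other 5 summed to 2964 to 3401 in water-PBS and 2641 to 2907 in water-Dex, and to 3130 to 3313 in zinc-PBS and 2538 to 2919 in zinc-Dex, lower in every Dex mouse. Without *Kdr* as well, the remaining 4 overlapped between PBS and Dex mice, at 2110 to 2417 against 2261 to 2459 on water and 2188 to 2348 against 2169 to 2478 on zinc. *Onecut1* and *Onecut2* are also made by bile duct cells. None of 5 cholangiocyte markers was called with Dex by DESeq2, edgeR called 1 lower on zinc, and 1 on each water was lower at an unadjusted p under 0.05. Their sums were 731 to 839 in water-PBS, 657 to 1159 in zinc-PBS, 588 to 814 in water-Dex and 947 to 1164 in zinc-Dex. *Spp1* made up most of each sum, with a mean of 685 normalized counts in water-PBS. *Sox9* had a mean of 43.0 in water-PBS and 25.6 in water-Dex, and of 48.3 in zinc-PBS and 27.5 in zinc-Dex. *Krt19* and *Epcam* also had lower means with Dex on both waters, and *Krt7* had higher ones. The part of these cells in the falls was not tested. Pancreas, another organ with *Onecut1*, left at most 11.1 normalized counts in sum over 5 markers, with *Cpa1* and *Pnlip* at 0 in all libraries.

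None of the 6 Kupffer cell, 5 stellate cell and 4 neutrophil markers was called in the Dex or zinc comparisons by DESeq2 or edgeR. At an unadjusted p under 0.05, 1 neutrophil marker was higher with zinc in PBS mice and 1 lower with Dex on zinc. By the same measure 1 Kupffer cell marker was lower with Dex on water. The stellate markers had 1 higher and 1 lower with Dex on water, and 2 higher and 1 lower on zinc. With an adjusted p under 0.05 and no fold limit, 1 stellate marker was higher and 1 lower on water, and 1 was higher on zinc. Neutrophil markers summed to 42.8 to 57.8 normalized counts in water-PBS and 38.5 to 136 in zinc-PBS, the groups in which *Foxa3* differed, and *Vil1*, a gut epithelium marker, had 6.30, 10.01 and 6.59 in water-PBS and 25.3, 20.1 and 14.5 in zinc-PBS. The gut markers together summed to 623 to 814 and 693 to 824 in these groups. Most of that sum in water-PBS was *Fabp2*, with a mean of 664 normalized counts, so the sum says little about *Vil1*. *Epcam*, an epithelial marker, was at 0.59 ± 0.32 (log2, adjusted p = 0.89). The part of these in the *Foxa3* rise was not tested. With Dex on zinc *Hba-a1*, of 3 red blood cell markers, was called higher by 0.95, and *Vil1*, of 4 gut epithelium markers, lower by 2.04.

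Some of the genes share ground with neighbours, and how the counting used strand is not given in the sources used here. *Cebpb* shares 312 exon bases with *Tmem189* and *Cebpd* shares 562 with *Spidr*, both on the opposite strand. *Tmem189* had 48 to 116 counts and *Spidr* 36 to 71, and neither was called in any comparison. *Prox1* shares 133 exon bases with the antisense gene *Prox1os* (28 to 69 counts, -0.46 ± 0.27 with Dex on water, adjusted p = 0.25), and *Cebpa* 51 with *Gm45091* (1 to 10 counts). *Onecut1* shares 2171 of its 4113 exon bases with *Gm20649* on the same strand, which had 0 counts in every library, and how reads there were assigned is not given in the sources used here, so the level of *Onecut1* is uncertain. *Gm38345* lies on the opposite strand, has its own start shortly before *Hhex* begins and runs away from *Hhex*. *Gm38345* was called lower with Dex too, by 1.25 ± 0.28 (adjusted p = 0.00012) on water and by 1.08 ± 0.27 (adjusted p = 0.00078) on zinc. It had 49.4, 57.3 and 80.2 normalized counts in water-PBS and 35.5, 17.0 and 25.7 in water-Dex.

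For each gene called at least once, the 3 genes with the most similar pattern were looked up among 9574 genes, as the smallest root mean square difference of log2 normalized counts over the 12 libraries after centring on water-PBS. The nearest to *Cebpa* were *Xkr8* (0.11), *Slc38a7* (0.15) and *Slc36a1* (0.17). The nearest to *Cebpb* were *Slc25a32* (0.15), *Susd6* (0.18) and *Il1r1* (0.20), and to *Cebpd* they were *Retreg1* (0.23), *Sds* (0.23) and *Jun* (0.26). *Foxa1* was followed by *Repin1* (0.16), *Zfp707* (0.18) and *Zeb2* (0.18), and *Foxa2* by *2610528J11Rik* (0.27), *Paqr7* (0.28) and *Fam84b* (0.30). For *Foxa3* they were *Gm12966* (0.23), *Erf* (0.25) and *Bcl2l11* (0.25), and none of these 3 was called with zinc (log2 fold changes of 0.53, 0.67 and 0.75, with adjusted p = 0.27, 0.019 and 0.30). For *Prox1* they were *Dtx3l* (0.20), *Nfic* (0.21) and *Rnpep* (0.21). *Hhex* and *Onecut1* had no close match: their nearest genes, *Pde4b* at 0.58, *Lhfpl2* at 0.64 and *Arrdc3* at 0.68, and *E2f8* at 0.79, *Gbp4* at 0.80 and *Arhgap29* at 0.81, were farther off than those of any other gene described here. The measure also takes in the spread between mice of a group. In water-PBS and zinc-PBS the coefficient of variation was 42% and 53% for *Hhex* and 66.5% and 112% for *Onecut1*. The large distances alone therefore do not show that the response of these genes to Dex was unusual. *Pde4b*, a cyclic AMP-degrading enzyme, fell by 3.24 with Dex on water and by 3.44 on zinc, close to *Hhex*.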

How the data were processed

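The data are raw counts of single-end reads from stranded TruSeq libraries of liver RNA, sequenced on a NextSeq 500. The authors mapped reads to mouse mm10 with HISAT2 2.0.4 and made counts per Ensembl gene with featureCounts, without reads that mapped to several places, and what was deposited are these raw counts. The submitters' processing notes also name Trimmomatic and SAMtools. The annotation release and strand setting are not given in the sources used here. Symbols, coordinates and exon lengths came from GENCODE M21, and upstream sequences from RefSeq.

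Following the study, DESeq2 1.42.0 (R 4.3.3) was fitted to all 12 libraries with 1 coefficient per group, with Wald tests and unshrunken log2 fold changes. A call needed an adjusted p below 0.05 together with a log2 fold change beyond 0.8 in either direction. Alternatives were edgeR 4.0.16 (quasi-likelihood, TMM), TMM factors, a low-count filter (10 counts or more in 3 or more libraries), a replicate term, only the libraries compared, no fold limit, no independent filtering, no Cook's distance filter and each library left out. The fits were tested on simulated data. The planned permutation tests of the *Cebpb* to *Cebpa* ratio and the FOXA sum are not reported, since the genes were chosen with results known, and both are given as values.

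The 9 genes and all lists (other liver factors, other C/EBP genes, hepatocyte products, fetal liver genes, treatment checks and cell type markers) were chosen with earlier results of these data known. Named from these lists are genes that were called, members of lists of at most 6 genes, genes overlapping the 9, and the 3 nearest patterns of each called gene. *Hnf4a*, *Alb*, *Apoa1*, *Onecut3* and *Gm38345* were named outside that rule, after their values were seen. Some members of the list of other liver factors are counted but not reported here by name. Each library is 1 mouse, so the tests set group differences against the spread between mice. That spread was estimated over all 12 libraries in 1 fit and not from the 3 mice of a group alone. At 9091152 to 12303527 counts per library, counting limits the precision of low genes such as *Cebpd*.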

Additional observations from a re-analysis of the deposited data

How the results depend on the processing

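The calls of *Foxa1*, *Foxa2*, *Cebpb*, *Cebpd* and *Hhex* with Dex held under every alternative run on either water and in zinc-Dex against water-PBS, as did those of *Cebpa* on either water and of *Prox1* on zinc. Over all genes, edgeR called 9 where DESeq2 called 17 with zinc in PBS mice, 21 against 60 with zinc in Dex mice and 3 against 5 for the interaction, while without the fold limit 3067 against 1376 passed with Dex on water and 3145 against 1516 on zinc. Without 1 library these counts were 11 to 38 with zinc in PBS mice, 26 to 101 with zinc in Dex mice and 4 to 23 for the interaction. Of the 9 genes, counts of called genes in the Dex comparisons stayed between 5 and 9. The call of *Onecut1* was lost without independent filtering (-2.13, adjusted p = 0.091 on water; -2.23, adjusted p = 0.066 on zinc), in 5 of 6 fits without 1 mouse on water and 3 of 6 on zinc, and on zinc with only the libraries compared (-2.22, adjusted p = 0.098). With zinc in PBS mice the count of 1 became 0 without zinc-PBS replicate 1 or replicate 3, and the interaction count of 0 became 1 without zinc-PBS replicate 2, so these counts ranged from 0 to 1. Without 1 library, the ratio of *Cebpb* to *Cebpa* differed with Dex by 2.99 to 3.31 (log2) and the FOXA sum by -0.47 to -0.38, and by -0.50 when counts were not divided by exon length.

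Mice with the same number in different groups deviated from their group means with correlations of -0.20 to 0.19. What mice with the same number shared, if anything, is not given in the sources used here, and correlations this low cannot exclude a link. With the replicate block the calls of *Onecut1* were lost (-1.82, adjusted p = 0.13 on water; -1.76, adjusted p = 0.14 on zinc; -1.83, adjusted p = 0.11 in zinc-Dex against water-PBS), and no other call changed. The block turned the sign of 3 values of *Onecut1* that no fit called: -0.0707 with zinc in PBS mice, -0.00975 with zinc in Dex mice (-0.00065 with TMM factors) and 0.0609 for the interaction.

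The sign also turned for other uncalled values near 0 when 1 library was left out. With zinc in PBS mice the ranges were -0.10 to 0.65 for *Hhex*, -1.38 to 0.80 for *Onecut1*, -0.25 to 0.26 for *Cebpb* and -0.0467 to 0.25 for *Foxa1*. With zinc in Dex mice they were -0.34 to 0.0599 for *Foxa2*, -0.48 to 0.55 for *Onecut1*, -0.16 to 0.00987 for *Prox1*, -0.0392 to 0.12 for *Cebpa* and -0.0442 to 0.70 for *Hhex*. For the interaction they were -0.20 to 0.0438 for *Cebpa*, -0.41 to 0.41 for *Hhex*, -0.79 to 1.39 for *Onecut1*, -0.12 to 0.39 for *Cebpb* and -0.54 to 0.13 for *Cebpd*. The cause was not tested.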
